A study of Homo sapiens with 6 samples.

Results

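BMF, BCL2L11 and BCL2L1 are 3 genes of the BCL2 family, the proteins that set whether the mitochondrial path of cell death starts. They were followed in 6 RNA libraries of LX-2, an established human line of hepatic stellate cells, the cells that lay down scar matrix in injured liver. Per the labels, the cells were of wild-type genotype and were treated over 24 h. The treatments were FEBJ (an extract from fruit of Brucea javanica), cynaroside (a flavone glucoside) and DMSO, the solvent control. There were 2 libraries of total RNA per group, and the labels give no dose. Nor do they say that replicate libraries were separate cultures, so p-values here measure only the spread between these libraries, which may be technical. The 3 genes and the way of reading them were chosen with earlier results of these data known. Each was read from the deposited row of a non-coding gene on the other strand. The exons of that non-coding gene overlap exons of the member by at least 50 bp, and those of no other opposite gene. Such rows gave 1699 genes, of which 1443 passed the filter on low counts, and 3 of 3 members were among them.

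BMF and BCL2L11, whose protein is BIM, are BH3-only proteins: they bind the survival proteins of the family and free the pore formers BAX and BAK to open the outer mitochondrial membrane. BCL2L1 encodes the survival protein BCL-XL, which holds the BH3-only proteins and the pore formers in check, and a shorter splice form, BCL-XS, which promotes death. Activated stellate cells are known for resisting cell death, and their loss is one way in which scarring of the liver can resolve.

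The 3 opposite rows differed in how much of them faces the gene they stand for. Exon positions came from GENCODE 29 on GRCh38, while the submitters' notes name hg19, so only overlaps and lengths are given. BMF was read from BMF-AS1, a 461 bp antisense gene of 2 exons, and 100% of it faces the last exon of BMF beyond the coding part. BCL2L1 was read from ABALON, a single exon of 1903 bp. Of ABALON, 1424 bp (74.8%) face exons of BCL2L1 and 479 bp (25.2%) face its introns. BCL2L11 was read from MIR4435-2HG, a long intergenic RNA gene of 26 exons and 13094 bp that spans 487 kb. Only 727 bp (5.55%) of MIR4435-2HG face exons of BCL2L11. A further 1585 bp (12.1%) face its introns, and 10782 bp (82.3%) lie outside the gene. Over the 1828 non-coding rows used, the median share of exon length that faces the gene was 33.7%, and 6.67% of rows had a lower share than MIR4435-2HG. The counts of MIR4435-2HG can therefore come from anywhere along a gene that mostly does not touch BCL2L11, and they are given below under both names. MIR4435-2HG also has a near-identical copy elsewhere in the genome, CYTOR. The row of CYTOR held 7 and 18 counts with DMSO, 2 and 6 with FEBJ, and 0 and 0 with cynaroside, far fewer than MIR4435-2HG. How reads that match both were assigned was not tested.

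**Figure D1:**
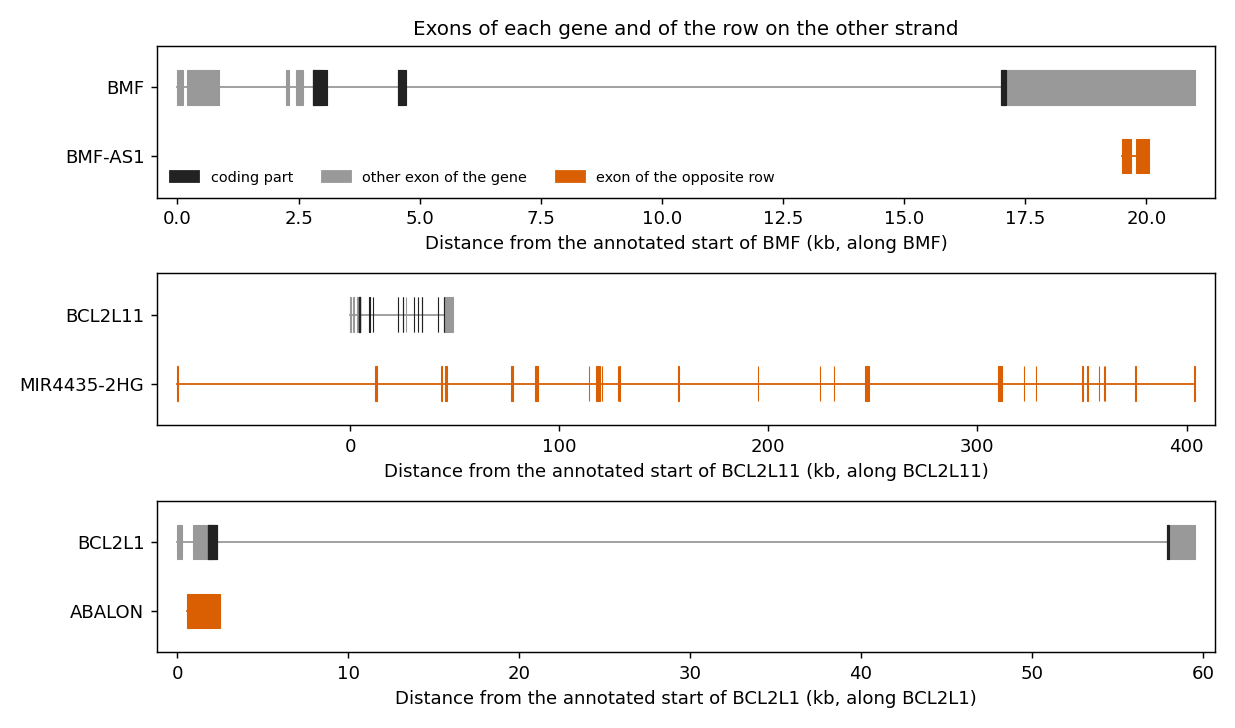
Exons of each member and of the non-coding row it was read from, drawn to scale by distance in kb from the annotated start of the member, with coding parts in black, other exons in grey and exons of the opposite row in orange. BMF-AS1 and ABALON lie within their gene, whereas most exons of MIR4435-2HG lie outside BCL2L11.

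ABALON is the only one of the 3 rows that faces coding sequence: it covers 564 of the 699 coding bases (80.7%) of BCL2L1. The first 120 coding bases of BCL2L1 (GENCODE 29 transcript, bases 380 to 499, 5′ to 3′) are shown because they lie in the 944 bases in which this transcript is the reverse complement of ABALON. The capitals mark the start codon.
BCL2L1: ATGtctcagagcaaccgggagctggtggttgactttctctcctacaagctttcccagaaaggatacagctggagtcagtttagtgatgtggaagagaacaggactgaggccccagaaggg
A read from this stretch has the same letters whether it came from BCL2L1 or, on the other strand, from ABALON. Without knowledge of the strand the 2 cannot be told apart, and the row gives no split between BCL-XL and BCL-XS. The library kit and the strand setting of the counting step are not given in the sources used here. For BMF the shared stretch of 287 bases and for BCL2L11 the shared stretch of 729 bases lie after the coding part, and they are not printed.

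The gene rows held 1599000 (cynaroside 1) to 4709317 (cynaroside 2) counts per library, 5.48 to 6.12% of all counts, and 87.4 to 88.3% fell outside every feature. The opposite rows used held 686079 to 2007084 counts per library, or 36.9 to 42.9% of the counts in gene rows. Among 14 stellate cell and fibroblast markers read from their own rows, 6 were at 0 in every library (PDGFRA, COL1A2, LUM, DCN, DES and FAP). The summed level of the list was 893 and 893 CPM (counts scaled to a common library size) with DMSO, 70.6 and 64.1 CPM with FEBJ and 165 and 128 CPM with cynaroside. Hepatocyte markers summed to 0 to 13.6 CPM (5 of 10 at 0, ALB and TTR included), with the highest sums in the FEBJ libraries, and leukocyte markers to 2.42 to 12.5 CPM (4 of 10 at 0, PTPRC included). Endothelial markers summed to 147 to 172 CPM (4 of 10 at 0, PECAM1 included), mostly from the row of STAB1 (350 and 516 counts with DMSO). Epithelial markers (2 of 10 at 0, EPCAM and KRT19) summed to 1826 and 1826 CPM with DMSO, 1554 and 1549 CPM with FEBJ, and 657 and 629 CPM with cynaroside. The row of KRT8 held most of this sum: 4234 and 6170 counts with DMSO, 3553 and 5037 with FEBJ, and 835 and 2291 with cynaroside. That of CLDN4 did not share the fall with cynaroside, with 56 and 101, 18 and 66, and 81 and 277 counts in the same order. Of VIM, THY1, ACTA2, KRT7 and KRT18, which were looked up among the tested opposite rows, 4 could be read there, all but KRT18. The other listed markers were not looked up there. The stellate markers VIM and THY1 had means of 126545 and 875 CPM with DMSO, 67199 and 539 CPM with FEBJ, and 99746 and 986 CPM with cynaroside. ACTA2, the smooth muscle actin of activated stellate cells, was at 275, 305 and 544 CPM in that order. It rose with cynaroside (log2 fold change 1.00 ± 0.13, adjusted p = 1.82e-13, edgeR) and was at 0.15 ± 0.13 with FEBJ, not called. KRT7, an epithelial keratin, was at 161, 953 and 74.3 CPM. It rose 5.94-fold with FEBJ (adjusted p = 2.87e-79, edgeR) and fell 2.37-fold with cynaroside (adjusted p = 7.22e-12, edgeR). These marker levels differed between the groups, and their part in the results below was not tested. In bulk RNA, fewer cells of a type and less RNA per cell cannot be told apart.

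Between DMSO and FEBJ, the row opposite the death gene BMF and the row assigned to the death gene BCL2L11 rose, and the row opposite the survival gene BCL2L1 fell. Between DMSO and cynaroside, the row assigned to BCL2L11 rose and that opposite BCL2L1 fell on the scale of the opposite rows, while the row opposite BMF did not pass the test. The share of all genes of this reading that passed the same test was 70.5% for FEBJ (35.8% higher and 34.7% lower) and 41.7% for cynaroside (20.2% higher and 21.6% lower). Calls were thus common among all genes in both comparisons. How many of all genes had groups whose libraries did not overlap was not counted. The 2 comparisons share the DMSO libraries, so their values are set side by side and not correlated.

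**Figure D2:**
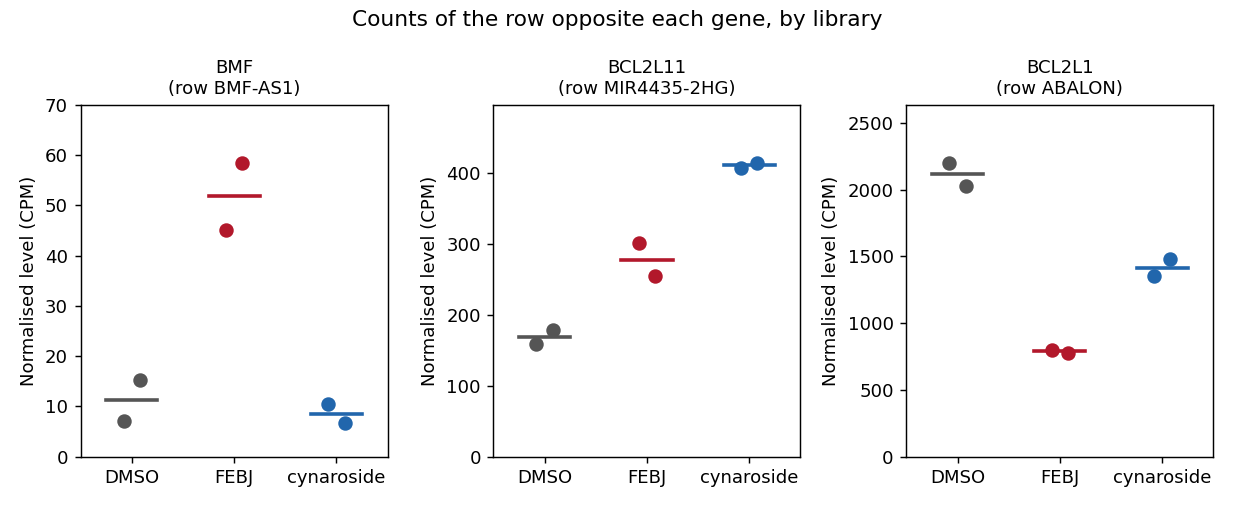
Normalised level in CPM of the row opposite BMF, BCL2L11 and BCL2L1 in each library; points are libraries and bars are group means (n = 2). FEBJ points lie above DMSO for BMF and BCL2L11 and below DMSO for BCL2L1, and BMF with cynaroside overlaps DMSO.

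BMF, a BH3-only protein that is held on the cytoskeleton and released under stress, had low counts. BMF-AS1 held 7 and 22 counts with DMSO, 46 and 83 with FEBJ, and 7 and 13 with cynaroside. Scaled by library size, the levels were 7.12 and 15.3 CPM with DMSO, 45.2 and 58.4 CPM with FEBJ, and 10.5 and 6.61 CPM with cynaroside. Both FEBJ libraries lay above the other 4, and the cynaroside libraries lay within or just below the DMSO range. The group means were 11.2 ± 5.81 CPM with DMSO, 51.8 ± 9.32 CPM with FEBJ and 8.54 ± 2.72 CPM with cynaroside (SD, n = 2 each).

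The row opposite BMF rose 4.43-fold with FEBJ, a log2 fold change of 2.15 ± 0.51 (SE; adjusted p = 4.64e-05, quasi-likelihood test of edgeR, Benjamini-Hochberg adjusted over all 1443 genes). The 95% interval of this difference ran from 1.15 to 3.14. A larger rise was seen in 6.1% of the tested genes. The size of the rise rests on the low DMSO counts: without DMSO 2 the log2 fold change was 2.84 ± 0.77 (adjusted p = 0.00104, edgeR).

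For cynaroside, the log2 fold change of the row opposite BMF was -0.57 ± 0.62 (adjusted p = 0.485, edgeR), with a 95% interval from -1.79 to 0.66. At this depth neither a fall nor a small rise was detectable, and without DMSO 2 the value was 0.14. Compared directly, BMF-AS1 was 6.55-fold higher with FEBJ than with cynaroside (log2 difference 2.71 ± 0.54, adjusted p = 1.57e-06, edgeR), where 69.5% of all genes passed (35.3% higher and 34.2% lower). Doses are not given, so this compares the cultures as treated and not equal amounts.

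The own row of BMF held 2 and 0 counts with DMSO, 4 and 0 with FEBJ and 0 and 0 with cynaroside, too few to be tested. From which strand the counts of BMF-AS1 came cannot be read from this.

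The row assigned to BCL2L11, whose protein BIM binds every survival protein of the family, was higher with both treatments than with DMSO. MIR4435-2HG held 156 and 257 counts with DMSO, 307 and 362 with FEBJ, and 273 and 814 with cynaroside, the last 2 from the shallowest and the deepest library. The levels were 159 and 179 CPM with DMSO, 302 and 255 CPM with FEBJ, and 408 and 414 CPM with cynaroside. From low to high, the order of the groups was DMSO, FEBJ, cynaroside. The means were 169 ± 14.5 CPM, 278 ± 33.3 CPM and 411 ± 4.27 CPM (SD, n = 2 each).

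MIR4435-2HG rose 1.63-fold with FEBJ (log2 fold change 0.70 ± 0.15, adjusted p = 6.37e-06, edgeR). It rose 2.42-fold with cynaroside (log2 fold change 1.28 ± 0.15, adjusted p = 1.23e-16, edgeR). With FEBJ, 29.1% of the tested genes rose more than this row, and with cynaroside 4.85% did. The direct difference between the treatments was larger than the spread between libraries: FEBJ was 1.49-fold lower than cynaroside (log2 difference -0.57 ± 0.14, adjusted p = 9.66e-05, edgeR).

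Whether these counts belong to BCL2L11 was not settled by the files. MIR4435-2HG held 31.5 DMSO counts per kb of exon. Of 10216 other long non-coding rows with no exon opposite, 1569 held at least 1 DMSO count, with a median of 3.99 counts per kb among them, and 209 (2.05%) were above MIR4435-2HG. These long non-coding rows with no exon opposite also moved, though whether they face introns was not looked at. In a fit of all deposited rows, 401 of them were tested. With FEBJ 99 rose and 72 fell (median log2 fold change 0.23), and with cynaroside 107 rose and 22 fell (median 0.59). In that same fit and scale, MIR4435-2HG had log2 fold changes of 0.92 ± 0.15 with FEBJ and 1.74 ± 0.15 with cynaroside.

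The own row of BCL2L11 held 16 and 28 counts with DMSO, 14 and 17 with FEBJ, and 16 and 53 with cynaroside. Its share of the own and opposite counts together was 9.3 and 9.82% with DMSO, 4.36 and 4.49% with FEBJ, and 5.54 and 6.11% with cynaroside. Whether the 2 rows changed differently was not tested. Its log2 fold change was -0.27 ± 0.59 with FEBJ (adjusted p = 0.719) and 0.97 ± 0.56 with cynaroside (adjusted p = 0.16), both by edgeR over 12012 deposited rows, in which 50.8% and 45.4% of rows were called. No rise of the own row of BCL2L11 passed the test at this depth, and the strand of its counts is not known.

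BCL2L1 was the highest of the 3 and fell with both treatments on the scale of the opposite rows. ABALON held 2160 and 2912 counts with DMSO, 814 and 1107 with FEBJ, and 903 and 2917 with cynaroside. The levels were 2197 and 2031 CPM with DMSO, 799.8 and 779 CPM with FEBJ, and 1350 and 1484 CPM with cynaroside. Cynaroside lay between the other groups. The means were 2114 ± 117 CPM, 789 ± 14.99 CPM and 1417 ± 94.9 CPM (SD, n = 2 each).

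With FEBJ the row opposite BCL2L1 fell 2.68-fold (log2 fold change -1.42 ± 0.07, adjusted p = 3.74e-96, edgeR), and 12.5% of the tested genes fell more. With cynaroside it was 1.48-fold lower (log2 fold change -0.57 ± 0.06, adjusted p = 1.13e-17, edgeR), and 19% of the tested genes fell more. FEBJ was 1.81-fold lower than cynaroside (log2 difference -0.85 ± 0.07, adjusted p = 2.76e-35, edgeR).

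The fall with cynaroside depended on the scale. When library sizes and factors of all deposited gene rows were used, the log2 fold change of ABALON with cynaroside was -0.11 (adjusted p = 0.251, edgeR), and the call was lost. That scale moved the median of all 1443 genes from -0.01 to 0.45 for cynaroside and from 0.05 to 0.26 for FEBJ, so ABALON stayed below the median gene on both. It also moved the share of cynaroside calls that were higher from 48.3% to 88.1%, with the lower ones going from 51.7% to 11.9%. On the same scale the fall with FEBJ was -1.21 and passed the test, as did the rises of MIR4435-2HG and, with FEBJ, of BMF-AS1.

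The own row of BCL2L1 held few counts: 44 and 52 with DMSO, 24 and 19 with FEBJ, and 3 and 36 with cynaroside. Own counts were 0.331 to 2.86% of the own and opposite counts together in the 6 libraries, and the median over the genes of the reading with DMSO was 7.3%. The reading kept only opposite rows with at least as many counts as the own row, which by itself holds this median low. The own row had log2 fold changes of -0.93 ± 0.56 with FEBJ (adjusted p = 0.167) and -1.16 ± 0.57 with cynaroside (adjusted p = 0.0985) by edgeR, neither of which passed. Between FEBJ and cynaroside, where 41.9% of own rows were called, the own row of BCL2L1 differed by 0.23 ± 0.60 (adjusted p = 0.791, edgeR) and that of BCL2L11 by -1.24 ± 0.58 (adjusted p = 0.0859, edgeR). For BCL2L1 this sign is opposite to that of ABALON.

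Per kb of exon, the 2 DMSO libraries held 2665 counts on ABALON, 62.9 on BMF-AS1 and 31.5 on MIR4435-2HG. Per kb of its own exons, ABALON was thus far above the other 2 rows. For MIR4435-2HG the length used is all 13094 bp, of which only 727 bp face BCL2L11. Its value is therefore no length-corrected level of BCL2L11. By mean CPM, 92.2% of the 1443 genes lay below BCL2L1, 62.2% below BCL2L11 and 13.4% below BMF.

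Ratios within a library need no scaling between libraries, and they are descriptions of unequal change between rows. The count ratio of ABALON to MIR4435-2HG, which stand for BCL2L1 and BCL2L11, was 13.8 and 11.3 with DMSO, 2.65 and 3.06 with FEBJ, and 3.31 and 3.58 with cynaroside. Both treatments lay below DMSO in this survival to death ratio, with the caution on MIR4435-2HG above. The count ratio of ABALON to BMF-AS1 was 309 and 132 with DMSO, 17.7 and 13.3 with FEBJ, and 129 and 224 with cynaroside. Both FEBJ libraries stood far below DMSO here, while cynaroside 1 lay just under the lower DMSO value and cynaroside 2 between the DMSO values. The ratio of the 2 death genes' rows, MIR4435-2HG to BMF-AS1, was 22.3 and 11.7 with DMSO, 6.67 and 4.36 with FEBJ, and 39 and 62.6 with cynaroside, so that FEBJ lay below and cynaroside above the DMSO pair.

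**Figure D3:**
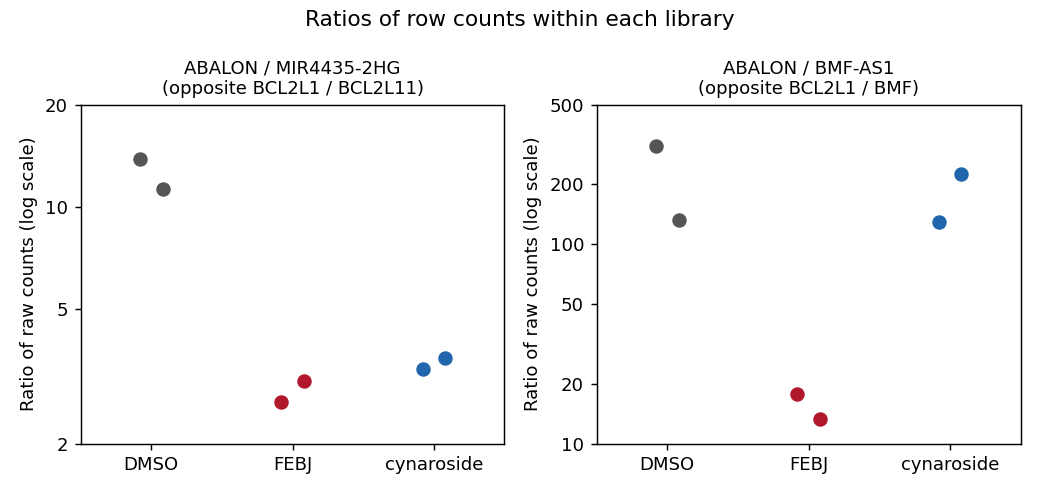
Ratio of raw counts within each library, on a log axis, of the row opposite BCL2L1 to the row assigned to BCL2L11 (left) and to the row opposite BMF (right); each point is a library. The left ratio is lower in the FEBJ and cynaroside libraries than with DMSO, and the right ratio is lowest with FEBJ.

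The BCL2 family list held 29 genes, and 6 of them could be read from opposite rows: the members and BOK, BNIP1 and BNIP2. With FEBJ 3 of these 6 rose and 3 fell, with a median log2 fold change of -0.21 against 0.05 over all genes. With cynaroside 1 rose, 2 fell and 3 were not called (median -0.38 against -0.01). FEBJ was higher than cynaroside in 2 and lower in 4 (median -0.71 against 0.03).

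BNIP1, a BH3-domain protein of the endoplasmic reticulum that works in membrane fusion, had the pattern nearest to BMF. Its row was at 23.4 and 39.1 CPM with DMSO, 148 and 151 CPM with FEBJ, and 32.9 and 25.4 CPM with cynaroside. It rose with FEBJ by a log2 fold change of 2.22 ± 0.28 (adjusted p = 8.49e-15, edgeR) and had a value of -0.19 ± 0.33 with cynaroside, which was not called. Only 27.4% of the exon length of its row faces BNIP1.

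BOK, a pore former of the BAX type, moved in the same direction as the survival gene BCL2L1 on this scale. Its row was at 226 and 238 CPM with DMSO, 77.6 and 54.2 CPM with FEBJ, and 133 and 134 CPM with cynaroside. It fell by 1.84 ± 0.20 on the log2 scale with FEBJ (adjusted p = 7.18e-19) and by 0.80 ± 0.19 with cynaroside (adjusted p = 1.13e-04), both by edgeR. Of the BOK row, 31.3% of exon length faces the gene.

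BNIP2, a scaffold protein first found as a partner of BCL2, was at 194 and 213 CPM with DMSO, 91.4 and 94.95 CPM with FEBJ, and 233 and 283 CPM with cynaroside. It fell with FEBJ (log2 fold change -1.13 ± 0.18, adjusted p = 1.54e-09, edgeR), and its value with cynaroside was 0.36 ± 0.17 (adjusted p = 0.0679, edgeR). All 6 family rows passed the threshold with FEBJ, where 70.5% of all genes passed it. On the scale of all deposited rows, BOK with cynaroside was at -0.33 ± 0.19 and lost its call (adjusted p = 0.132, edgeR). On that scale BNIP2 rose with cynaroside by 0.82 ± 0.17 (adjusted p = 1.07e-05, edgeR), and BNIP1, not called on either scale, was at 0.27 ± 0.33.

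**Figure D4:**
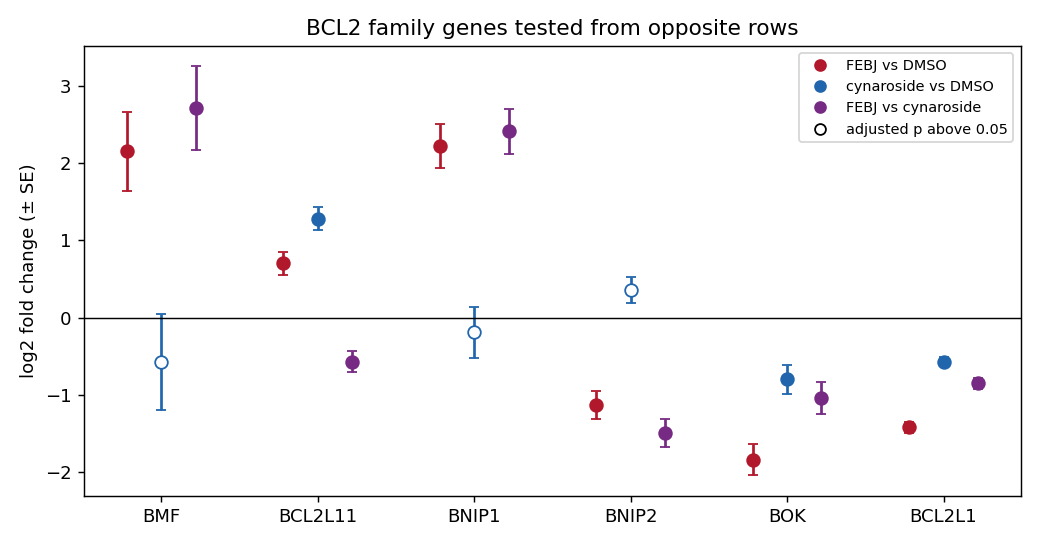
Log2 fold change ± SE (edgeR) of the 6 BCL2 family genes read from opposite rows, for FEBJ against DMSO (red), cynaroside against DMSO (blue) and FEBJ against cynaroside (purple); open points did not pass the adjusted threshold. The death genes BMF and BCL2L11 lie above 0 for FEBJ and the survival gene BCL2L1 lies below 0, as do BOK and BNIP2.

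Of 77 further genes of the death pathway (caspases, inhibitors of apoptosis, death receptors, and regulators of BIM, BMF and BCL-X), 9 could be read from opposite rows. With FEBJ 0 rose and 6 fell (median log2 fold change -0.93), where 35.8% of all 1443 genes rose and 34.7% fell (median 0.05). With cynaroside 0 rose and 4 fell (median -0.22), where 20.2% of all genes rose and 21.6% fell (median -0.01). With 9 genes these counts are small, and several of the cynaroside calls depended on the scale, as given below. AKT1 is a survival kinase that restrains FOXO factors, activators of BCL2L11 transcription. AKT1 fell with both treatments (-1.64 ± 0.06 and -0.22 ± 0.05), though with cynaroside it rose on the scale of all deposited rows.

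RBM25 and HNRNPK, RNA-binding proteins that act on the splicing of BCL2L1, were lower with FEBJ (-0.92 ± 0.20 and -0.93 ± 0.06). With cynaroside HNRNPK fell (-0.68 ± 0.06), while RBM25 was at -0.20 ± 0.19 and not called. FADD, the adaptor of death receptors, fell with FEBJ (-0.21 ± 0.06) and cynaroside (-0.44 ± 0.06). DFFA, the inhibitor of the nuclease that cuts DNA in dying cells, fell with FEBJ (-0.95 ± 0.17) and was at 0.18 ± 0.16 with cynaroside, not called. XAF1, which counters the caspase inhibitor XIAP, fell with cynaroside (-0.71 ± 0.21) and was at 0.33 ± 0.19 with FEBJ, not called. TNFRSF10A, a death receptor for TRAIL, passed in neither comparison. Several of these values turned on the scale of all deposited rows. There AKT1 rose with cynaroside (0.23 ± 0.07), as did DFFA (0.64 ± 0.16), RBM25 was at 0.27 ± 0.20 and not called, and XAF1 (-0.25 ± 0.21) lost its fall. FADD was at 0.01 ± 0.07 with FEBJ and 0.02 ± 0.08 with cynaroside there, called in neither, and XAF1 rose with FEBJ (0.54 ± 0.20).

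The BCL2 family was also read from its own rows, on another scale, and 15 of 29 could be tested there, BCL2L1, BCL2L11, BOK and BNIP2 included. From which strand the counts of own rows came is not known. Over the genes of the reading with DMSO, own rows held a median of 7.3% of the own and opposite counts together. That share was held low by the choice of opposite rows with at least as many counts as the own row. As the strand is not known, the rises and falls below are those of rows, and whether they follow the genes was not tested. With FEBJ 3 rose and 3 fell (median -0.01 against -0.06 over 12012 rows), where 26% of rows rose and 24.8% fell. With cynaroside 3 rose and 3 fell (median -0.32 against 0.02), where 24.3% rose and 21.1% fell. The genes named here were chosen after their values were seen. The survival gene MCL1, at 12.0 and 18.2 CPM with DMSO, was at 3.98 and 2.27 CPM with FEBJ and 1.37 and 1.51 CPM with cynaroside. It fell by 2.30 ± 0.64 and 3.34 ± 0.72 on the log2 scale (adjusted p = 0.00368 and 4.74e-04, edgeR).

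BID, the BH3-only protein that links death receptors to mitochondria, rose in its own row with both treatments, from 23.0 and 20.4 CPM with DMSO to 52.9 and 71.5 CPM with FEBJ and 54.9 and 74.9 CPM with cynaroside. The log2 fold changes were 1.53 ± 0.24 (adjusted p = 4.22e-06) and 1.61 ± 0.24 (adjusted p = 3.88e-06) by edgeR. BCL2L2, which encodes the survival protein BCL-W, also rose with both (0.72 ± 0.21 and 1.43 ± 0.21), and BCL2L12 rose with FEBJ (1.06 ± 0.14). The strand of the counts is not known for any of these own rows, BID included. The rows of BCL2L2 and BCL2L12 also face exons of the coding genes PPP1R3E and IRF3, so their counts are uncertain in the same way as those of the members. BNIP3L, a receptor for the removal of mitochondria, fell with FEBJ (-2.31 ± 0.18) and rose with cynaroside (0.62 ± 0.15), and its row likewise faces exons of the coding gene PNMA2. BCLAF1 fell with both (-1.83 ± 0.54 and -1.43 ± 0.54), and the pore former BAX fell with cynaroside (-3.09 ± 0.77) and was at -0.30 ± 0.59 with FEBJ, not called.

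The genes whose pattern over the 6 libraries was most like that of a member were found by the root mean square difference of log2 levels relative to the DMSO mean, among genes with a mean of at least 10 CPM. For BMF these were BNIP1 (0.20), ISL2 (0.26) and CCDC148 (0.31). For BCL2L11 they were PPP1R3B (0.12), LMLN (0.17) and VPS9D1 (0.18). For BCL2L1 they were ZNF22 (0.07), TUBA1C (0.09) and ZNRF1 (0.09). ISL2, for example, went from 86.5 and 121 CPM with DMSO to 557 and 577 CPM with FEBJ and 102 and 77.8 CPM with cynaroside. ZNF22 went from 1348 and 1285 CPM to 470.6 and 518 CPM with FEBJ and 895 and 866 CPM with cynaroside, in the order of BCL2L1.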

How the data were processed

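Total RNA of 6 LX-2 libraries was sequenced. Per the submitters' processing notes, the authors used CASAVA 1.7, HISAT2, HTSeq 0.12.4, DESeq2 1.38.0 and hg19, and the deposited values are raw counts per Ensembl gene. The kit, strand setting and annotation release are not given in the sources used here. Rows that name no gene (87.4 to 88.3% outside every feature) entered neither library sizes nor tests. Symbols matched 62700 of 62754 rows, and 58261 rows were in GENCODE 29.

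Counts of non-coding rows with at least as many counts as the own row of the single gene they face were summed per gene. The sums were fitted in edgeR 4.0.16 under R 4.3.3 (filterByExpr, TMM, 3 group means over all 6 libraries, 3 residual degrees of freedom, quasi-likelihood test, Benjamini-Hochberg adjustment over all tested genes, threshold 0.05). CPM are counts over the TMM library size. Standard errors are the log2 fold change over the square root of F. Own rows were tested in the same way in a fit of all deposited rows. The test was tried on simulated data with known changes. DESeq2 1.42.0 was an alternative. Replicates differed beyond sampling noise (mean chi-square per gene 2.82 to 2.94) and were kept apart.

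The members, lists and reading were chosen with earlier results of these data known. Named by rule were the members, family genes tested in the reading, up to 4 genes per pathway list, and the 3 nearest patterns per member. Protein sequences were not used here. Values of 2 genes of the pathway lists are not reported here, though the counts over the lists include them.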

Additional observations from a re-analysis of the deposited data

How the results depend on the processing

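Of 174 alternative values of the members, 166 kept direction and side of the threshold. Read from own rows, BCL2L11 gave -0.27 (FEBJ), 0.97 (cynaroside) and -1.24 (FEBJ against cynaroside), BCL2L1 gave -0.93, -1.16 and 0.23, and 6107, 5454 and 5034 rows were called. BMF had no tested own row. With only rows at least 50% opposite, added after seeing the data, 434, 270 and 410 genes were called because fewer were tested, and MIR4435-2HG dropped out. With the scaling of all deposited rows, BCL2L1 with cynaroside was -0.11. The cause of the other changes was not tested.

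Leaving out each library in turn, with a lone library assumed to vary like the other groups, gave the following ranges for FEBJ, cynaroside and FEBJ against cynaroside. BMF ran from 1.74 to 2.84, from -0.96 to 0.14 and from 2.29 to 2.91. BCL2L11 ran from 0.57 to 0.83, from 1.2 to 1.37 and from -0.7 to -0.44. BCL2L1 ran from -1.49 to -1.38, from -0.64 to -0.48 and from -0.96 to -0.79. Genes called numbered 895 to 1024, 462 to 598 and 913 to 990.

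The replicate numbers did not pair the libraries (correlations of deviations 0.03, -0.08 and -0.01). A replicate block left BCL2L11 with FEBJ at 0.70, BMF with FEBJ at 2.18 and BCL2L1 with cynaroside at -0.56, and changed no call of a member.

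Depth limits BMF most, with 7 to 83 counts per library.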

Other observations

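Genes of the death pathway outside the BCL2 family were also read from their own rows, where 48 of 77 could be tested. The strand of the counts in these own rows is not known, so the values below are those of rows. With FEBJ 7 rose and 17 fell (median log2 fold change -0.34), where 26% of all 12012 rows rose and 24.8% fell (median -0.06). With cynaroside 4 rose and 20 fell (median -0.91), where 24.3% of all rows rose and 21.1% fell (median 0.02). The genes named here were chosen after their values were seen. FOXO1, a transcription factor that activates BCL2L11 and has no exon opposite its own, held 0 and 8 counts with DMSO, 53 and 44 with FEBJ, and 1 and 3 with cynaroside. It rose with FEBJ by 3.89 ± 0.83 on the log2 scale (adjusted p = 2.75e-04, edgeR) and was at -0.54 ± 1.12 with cynaroside, not called. Of the other FOXO genes listed, FOXO3 was at -0.99 ± 1.09 with FEBJ and -0.57 ± 1.12 with cynaroside. FOXO6 was at 1.52 ± 0.65 and -0.80 ± 0.75. None of these values was called, and FOXO4 was not tested. HNRNPA1, a splicing factor that acts on BCL2L1, held 236 and 323 counts with DMSO, 6 and 23 with FEBJ, and 8 and 18 with cynaroside.

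CFLAR, the inhibitor of caspase 8 at death receptors, was at 46.3 and 45.2 CPM with DMSO, 230.4 and 257 CPM with FEBJ, and 52.1 and 50.7 CPM with cynaroside, a rise of 2.42 ± 0.15 with FEBJ. FAS, a death receptor, was at 44.9 and 34.5 CPM with DMSO, 41.8 and 48.8 CPM with FEBJ, and 152 and 144 CPM with cynaroside, a rise of 1.91 ± 0.18 with cynaroside. The rows of CFLAR and FAS face exons of CFLAR-AS1 and ACTA2, and the strand of their counts, as of the other own rows, is not known. ACTA2, on the scale of the opposite rows, was at 0.15 ± 0.13 with FEBJ and 1.00 ± 0.13 with cynaroside. Whether counts of the FAS row belong to ACTA2 was not tested.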
